A study of Mus musculus with 6 samples.

Results

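R-spondins, their Lgr receptors and the ligases they act on form a switch at the cell surface that sets how much Wnt receptor a cell carries. Rnf43 and Znrf3 are transmembrane ubiquitin ligases that mark Frizzled receptors for removal. Secreted R-spondins bind Lgr4, Lgr5 or Lgr6 together with a ligase and clear the ligase from the membrane, so that Frizzled stays and Wnt signals are stronger. In the mouse mammary gland Rspo1 is known as a product of luminal cells that acts with Wnt4 on basal cells, and Lgr5 and Lgr6 are used there to mark progenitor cells.

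The 8 genes Rspo1, Rspo2, Rspo3, Lgr4, Lgr5, Lgr6, Rnf43 and Znrf3 were taken from all 27670 genes on the array by gene name or older synonym, and 16 of the 41174 non-control probes belong to them. All 8 had a probe that passed the filter on dim probes and were among the 24736 genes tested. Each of the 6 Agilent 2-colour arrays held Cy5-labelled RNA of 1 group beside a Cy3-labelled common reference, RNA pooled from 11 cell lines of the mouse. All cells came from virgin C57/B6 mice. Het mice carried a heterozygous knockout of ΔNp63, the p63 isoforms that lack the N-terminal transactivation domain, and WT mice carried none. The groups were het P4, WT P4, het P5, WT P5, het MEC and WT MEC. P4 are sorted CD24+CD29hi cells enriched for mammary stem cells, P5 are sorted CD24+CD29lo cells enriched for luminal progenitors, and MEC are total mammary epithelial cells. Neither the age of the mice nor their number per array is in the labels. The title of the study places ΔNp63 and stem cell activity at its centre, so the questions for these genes are where the switch is expressed and whether its levels differ with genotype.

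The labels were checked on markers, given here as mean log2 ratios of sample over reference. Basal and myoepithelial markers averaged 4.88 in het P4 and 4.79 in WT P4, against 0.50 in het P5 and -0.15 in WT P5, and luminal markers 1.56 and 1.64 in P4 against 4.49 and 4.67 in P5. Fibroblast markers averaged -0.83 and -1.21 in het and WT P4 and -2.04 and -2.92 in het and WT P5, against 0.89 in het MEC and 1.70 in WT MEC. Adipocyte markers averaged at most 1.36 on the sorted arrays, against 2.31 and 2.35 in het and WT MEC. Immune markers were not lower in het P4 than in MEC. They averaged -0.32 and -0.97 in het and WT P4 and -0.97 and -1.41 in het and WT P5, against -0.80 and -0.56 in het and WT MEC. Trp63, the gene that encodes p63, was lower in het by 0.50 in P4 and 1.04 in MEC but higher by 0.35 in P5. Where its probe lies relative to the knockout is not given in the sources used here, so it does not check the genotype. Slide 1 held the 4 sorted samples and slide 2 the MEC samples, so MEC and slide cannot be told apart. The median Cy3 signal, that of the common reference, was 234 to 267 on the sorted arrays, against 110 and 112 in het and WT MEC. Het arrays lay after WT arrays on each slide, so position on the slide and genotype cannot be told apart.

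Several members have probes in more than 1 place, and for Lgr4 and Lgr6 the choice of probe changes the picture. The main values rest on the brightest probe of each gene. For Lgr4 that probe lies at chr2:109864637-109864696 on the plus strand of mm7, the mouse build named in the array files, and for Lgr6 at chr1:134873746-134873805 on the minus strand. The probes shown here lie upstream of those and gave other patterns, described after the population comparison. The Lgr4 probe lies at chr2:109840540-109841926, 22.8 kb upstream, and its 60 bases span 1387 bases of genome, so it crosses at least 1 intron. The Lgr6 probe lies at chr1:134876990-134877049, 3.24 kb upstream. Both sequences are those of the array design, written 5′ to 3′.
Lgr4 probe A_52_P278566: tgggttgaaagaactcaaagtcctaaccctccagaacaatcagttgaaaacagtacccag
Lgr6 probe A_52_P616580: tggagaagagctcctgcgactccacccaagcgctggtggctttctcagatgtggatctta

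**Figure D1:**
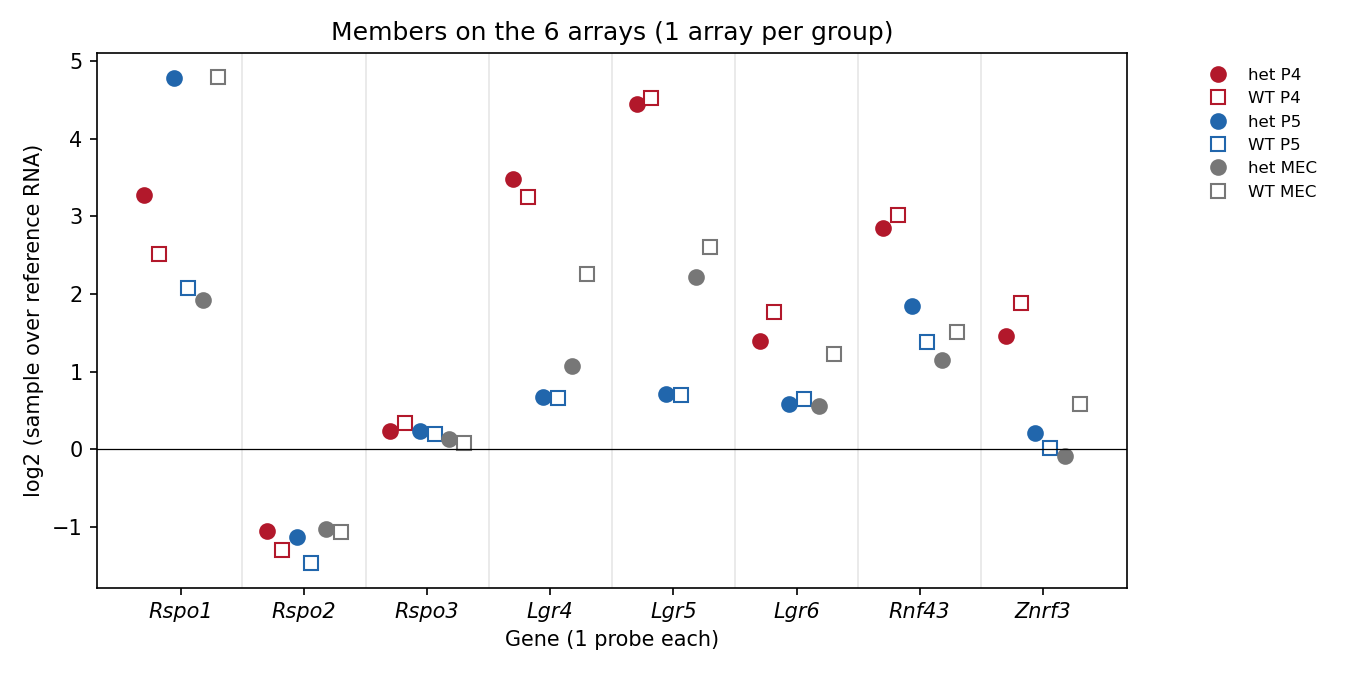
Log2 ratio of sample over reference RNA of the 8 members, 1 probe a gene, on the 6 arrays; filled circles are het, open squares WT, and colours are the populations. Lgr4, Lgr5, Lgr6, Rnf43 and Znrf3 are highest on both P4 arrays, and Rspo1 is highest in WT MEC and het P5.

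On the brightest probe of each gene, the receptors and ligases were highest in P4. All 3 Lgr receptors and both ligases were higher in P4 than in P5 in the limma fit, by 13.8-fold for Lgr5 and 1.96-fold for Lgr6. None of the 3 R-spondins passed the test. These 5 of 8 members stand beside 7.51% of the 24736 tested genes called higher, 7.39% called lower and 14.9% called in either direction. The Lgr4 probe was the brightest by a narrow margin, with a mean log2 Cy5 level of 10.10. The probe 22.8 kb upstream had 10.07. In the limma fit over 36425 probes, the upstream probes shown above were not called in P4 minus P5. They gave 0.70 for Lgr4 (adjusted p = 0.426) and -0.28 for Lgr6 (adjusted p = 0.523). With median centring in place of loess 24.0% of the called genes were higher in P4, against 50.4% here, and the same 5 members were called. The fit holds population and genotype as additive terms over the 6 arrays, and a call needed an adjusted p (Benjamini-Hochberg) under 0.05. In such RNA from many cells, fewer cells of a type and less RNA per cell cannot be told apart.

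Lgr5, the R-spondin receptor best known as a stem cell marker of the gut, had log2 ratios of 4.45 in het P4 and 4.52 in WT P4, against 0.71 in het P5 and 0.69 in WT P5. In MEC it stood at 2.22 in het and 2.60 in WT. The populations did not overlap, and P4 lay highest, MEC between and P5 lowest. The raw Cy5 intensities were 791 and 948 in het and WT P4, against 81.3 and 94.7 in P5. P4 exceeded P5 by 3.79 ± 0.15 (log2, SE, n = 2 arrays a population, adjusted p = 0.00189).

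Lgr4, the most widely expressed receptor of the family, had log2 ratios of 3.49 in het P4 and 3.25 in WT P4, against 0.67 in het P5 and 0.66 in WT P5. In MEC it stood at 1.07 in het and 2.26 in WT, between the sorted populations. P4 exceeded P5 by 2.70 ± 0.36 (adjusted p = 0.0127). A probe 1.18 kb upstream gave 2.20 and 2.92 in het and WT P4, against 0.49 and 0.39 in het and WT P5, also a called difference (2.12, adjusted p = 0.00988 over 36425 probes).

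Lgr6, the third receptor, differed less between the sorted populations. Its log2 ratios were 1.40 in het P4 and 1.76 in WT P4, against 0.58 in het P5 and 0.65 in WT P5, with 0.55 in het MEC and 1.22 in WT MEC. P4 exceeded P5 by 0.97 ± 0.18 (adjusted p = 0.0291). WT MEC lay nearer to het P4 than to either P5 array.

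The ligases followed the receptors. Znrf3 had log2 ratios of 1.46 in het P4 and 1.88 in WT P4, against 0.20 in het P5 and 0.01 in WT P5, and P4 exceeded P5 by 1.57 ± 0.23 (adjusted p = 0.0163). Its MEC values, -0.09 in het and 0.59 in WT, lay on both sides of the P5 pair. Rnf43 had 2.84 in het P4 and 3.02 in WT P4, against 1.85 in het P5 and 1.38 in WT P5, and P4 exceeded P5 by 1.32 ± 0.23 (adjusted p = 0.0237). Its MEC values, 1.15 and 1.51 in het and WT, overlapped the P5 pair.

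The ligands did not share this pattern. Rspo1 had log2 ratios of 3.27 in het P4 and 2.52 in WT P4, against 4.78 in het P5 and 2.07 in WT P5, a difference of -0.53 ± 1.26 (adjusted p = 0.818). The P5 arrays lay on both sides of the P4 pair. Rspo3 stayed between 0.07 and 0.34 on all 6 arrays, with raw Cy5 intensities of 89.9 to 108. Rspo2 had log2 ratios between -1.47 and -1.03, with raw Cy5 intensities of 58.9 to 70.4, and was not well above background in WT P4. Its Cy5 level in het P4 was at least 0.22 higher on the log2 scale than the lowest level well above background in WT P4. P4 minus P5 was 0.07 for Rspo3 (adjusted p = 0.758) and 0.13 for Rspo2 (adjusted p = 0.598).

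The calls rest on few arrays, here and in the comparisons with MEC below. Without either P4 array the loss of calls was not particular to these members, as the counts over all genes in the closing section show. Leaving out het P4 or WT P4 ended all 5 calls (adjusted p = 0.0821 to 0.232 without het P4 and 0.0917 to 0.230 without WT P4), and leaving out WT P5 ended those of Lgr4, Lgr6, Rnf43 and Znrf3 (adjusted p = 0.0575 to 0.178), while Lgr5 kept its call (adjusted p = 0.00766); the differences without 1 array were 3.66 to 3.91 for Lgr5, 2.29 to 3.12 for Lgr4, 1.19 to 1.94 for Znrf3, 0.95 to 1.69 for Rnf43 and 0.74 to 1.19 for Lgr6. With the local backgrounds as given in the files, in place of replacing a few far above the rest of their array, Lgr6 lost its call (0.50, adjusted p = 0.138), Lgr5 differed by 2.63 (adjusted p = 0.0264) and Lgr4 was represented by its upstream probe (0.20, adjusted p = 0.910).

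MEC were next used as the unsorted comparison. Lgr5, Lgr4, Rnf43 and Znrf3 were higher in P4 than in MEC, 4 of 8 members, where 9.5% of tested genes were called higher, 8.27% lower and 17.8% in either direction. The P4 arrays enter both comparisons, so they are not independent. P4 exceeded MEC by 2.07 ± 0.15 for Lgr5 (adjusted p = 0.00628), 1.61 ± 0.23 for Rnf43 (adjusted p = 0.0156), 1.43 ± 0.23 for Znrf3 (adjusted p = 0.0214) and 1.70 ± 0.36 for Lgr4 (adjusted p = 0.0373). The difference of Lgr6 was 0.69 ± 0.18 (adjusted p = 0.0585), and it was called in Cy5 alone (0.90, adjusted p = 0.0227). Without het P4 or without WT P4 the calls of Lgr5, Lgr4, Rnf43 and Znrf3 were lost. Lgr6 differed by 0.92 without WT MEC and by 0.47 without het MEC. P4 minus MEC of Rspo1 was -2.76 without het MEC and 1.84 without WT MEC, each against the 1 MEC array left. With median centring in place of loess, which moved the median of all genes to -0.45, Lgr4 (0.16), Rnf43 (0.11) and Znrf3 (0.45) lost their calls, and with backgrounds as given Lgr5 (1.37, adjusted p = 0.112) and Znrf3 (1.15, adjusted p = 0.0501) did.

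P5 differed from MEC in 1 member. Lgr5 was lower in P5, by -1.71 ± 0.15 (adjusted p = 0.0133), where 4.05% of tested genes were called lower, 1.96% higher and 6.01% in either direction. The order of Lgr5 was therefore P4, MEC, P5, and each step passed the test. For Lgr4 the difference of P5 and MEC was -1.0 ± 0.36 (adjusted p = 0.178), and for Lgr6, Rnf43 and Znrf3 it lay between -0.27 and 0.28, so P5 and MEC were not separated for these. The Lgr5 call was lost without het P4, without WT P4 (adjusted p = 0.100 each), without WT P5 (adjusted p = 0.0593) and with backgrounds as given (-1.26, adjusted p = 0.155). With median centring Lgr4 (-1.92), Lgr6 (-0.61) and Rnf43 (-0.73) were called lower, beside 11471 of all 24736 genes. With only 1 MEC array left, Lgr4 differed by -1.66 without het MEC and by -0.34 without WT MEC. P5 minus MEC of Rspo1 was -2.23 without het MEC and 2.37 without WT MEC, each against the 1 MEC array left.

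**Figure D2:**
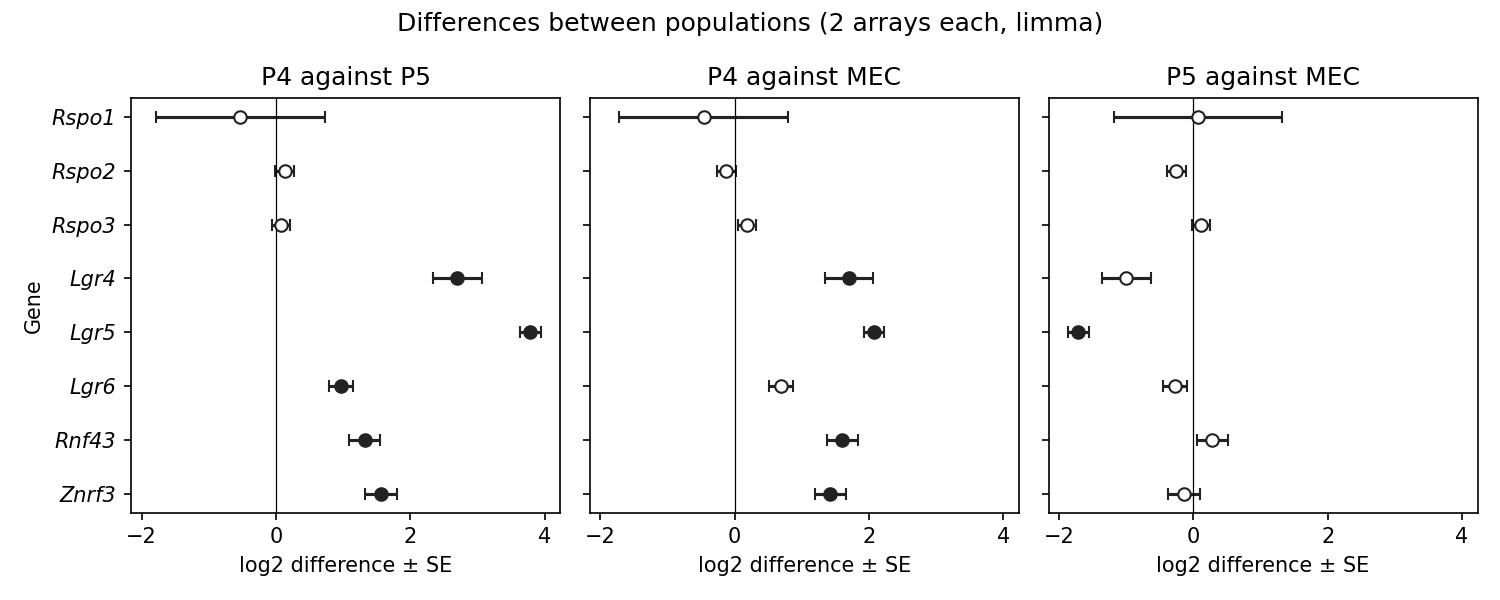
Difference in log2 ratio between populations for the 8 members, with the standard error of the limma fit (2 arrays a population); filled points passed an adjusted p below 0.05 and open points did not. Lgr5 is the only member filled in all 3 panels, and the bar of Rspo1 is the widest in each.

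The upstream Lgr4 probe did not follow the other Lgr4 probes. It gave log2 ratios of 6.30 in het P4, 4.19 in WT P4, 5.42 in het P5 and 3.68 in WT P5, against 0.32 in both het MEC and WT MEC. Its raw Cy5 intensities were 4869, 1916, 2635 and 1468 on the 4 sorted arrays, against 104 and 156 in het and WT MEC. The Cy3 intensities of the reference on this spot also differed, in the same direction. They were 360 and 365 in het and WT P4 and 204 and 216 in het and WT P5, against 59 and 80 in het and WT MEC. The sorted populations were both high and MEC low on this probe, whereas on the brightest probe MEC lay between them. P4 exceeded MEC by 4.93 (adjusted p = 0.00758) and P5 exceeded MEC by 4.23 (adjusted p = 0.0172), and P4 and P5 differed by 0.70 (adjusted p = 0.426). The high arrays are those of slide 1 and the low arrays those of slide 2, so population and slide cannot be told apart here. Of 6322 genes with several probes well above background on all arrays, 2 differed between probes in P5 minus MEC as much as Lgr4 did (a range of 5.26, against a median range of 0.35), Lgr4 itself and Col2a1, a cartilage collagen named here after its value was seen. The remaining Lgr4 probe, 7.95 kb upstream of the 3′ most one, was well above background in Cy5 on 4 arrays, with log2 ratios of 0.04 to 0.37.

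The upstream Lgr6 probe also departed from its partner. It gave log2 ratios of 1.07 in het P4 and 0.32 in WT P4, against 1.56 in het P5 and 0.39 in WT P5, with 0.24 and 0.08 in het and WT MEC. P4 minus P5 was -0.28 on this probe (adjusted p = 0.523), so the call for Lgr6 rests on the probe nearest the 3′ end. On both upstream probes het exceeded WT in each sorted population, by 2.11 in P4 and 1.74 in P5 for Lgr4 and by 0.75 and 1.17 for Lgr6. Of 29590 probes well above background on all arrays, 0.233% were at least as far above WT in both populations as the Lgr4 probe and 1.16% as the Lgr6 probe. Of the genes at least 2-fold apart by genotype, 88.5% were higher in het in P4 and 71.8% in P5, against 41.0% and 26.3% with median centring. On the brightest probes the same differences were 0.24 and 0.01 for Lgr4 and -0.37 and -0.07 for Lgr6. For Lgr6 the range between probes was shared by 10.1% of those 6322 genes. What makes the probes differ was not tested.

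Second probes of the other members held little signal. Those of Lgr5 and Rspo3 were well above background in Cy5 on no array, and those of Rspo2 and Rnf43 on 1 array each. Rspo1 and Znrf3 had 1 probe each, at chr4:124453673-124453732 (plus strand) and chr11:5228747-5228806 (minus strand). The probe used for Lgr5 lies at chr10:114958025-114958084 (minus strand) and that for Rnf43 at chr11:87805350-87805409 (plus strand). No annotation of mm7 was used here, so exons and untranslated regions are not assigned.

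**Figure D3:**
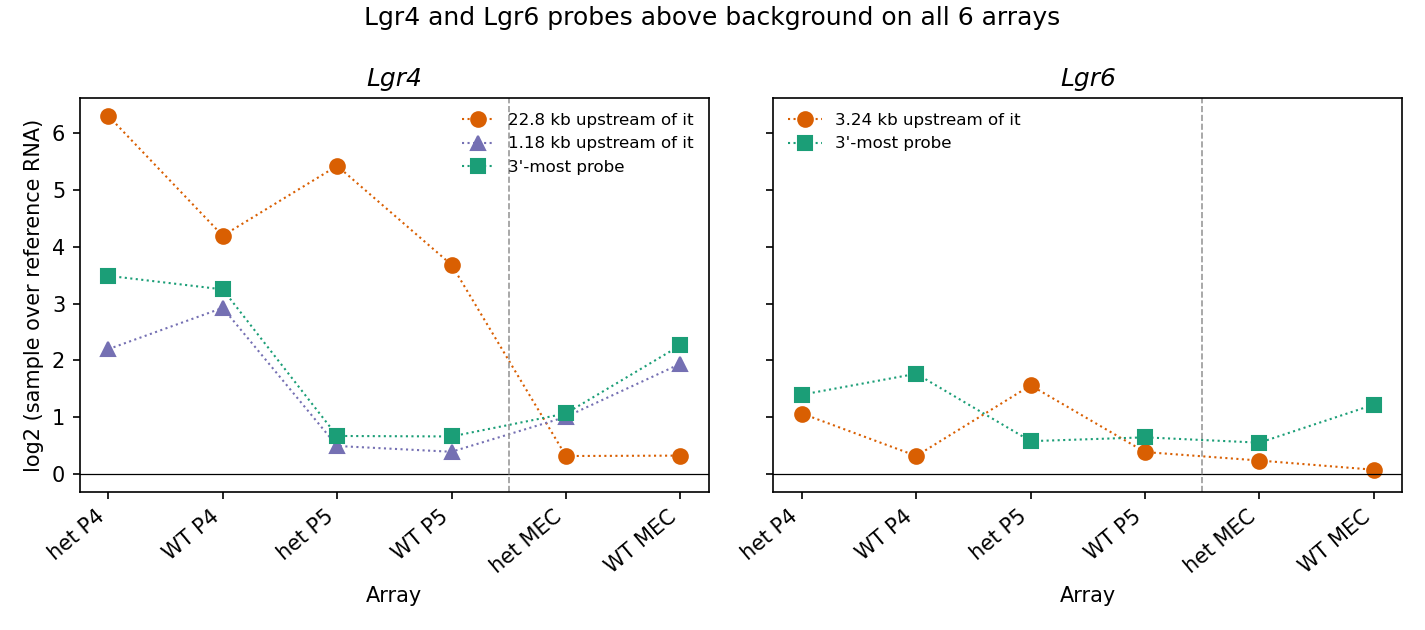
Log2 ratio of sample over reference RNA on each array for the probes of Lgr4 (left) and Lgr6 (right) that were well above background on all 6 arrays; distances are genomic distances from the 3′ most probe, dotted lines only join points of a probe, and the dashed line separates the slides. The Lgr4 probe 22.8 kb upstream lies between 3.68 and 6.30 on the sorted arrays and at 0.32 on both MEC arrays.

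Genotype was compared next. In the fit over the 3 populations, limma called 0 of 24736 genes between het and WT (0% called; 3647 genes had an unadjusted p below 0.05, and the lowest adjusted p was 0.280), and the adjusted p of the 8 members ranged from 0.350 for Lgr6 to 0.990 for Rspo3. The same fit of the P4 and P5 arrays only, with fewer residual degrees of freedom, called 1874 genes. Among them was Rspo1, higher in het by 1.73 (adjusted p = 0.0190). That value is the mean of 0.76 in P4 and 2.71 in P5, each 1 array against 1. Within a population the genotypes are 1 array against 1 and have no test, so the values below are differences between 2 arrays.

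Rspo1, the R-spondin that luminal cells of the gland are known to make, had the largest genotype differences of the 8, in opposite directions. In P5 its log2 ratio was 4.78 in het, against 2.07 in WT, and the raw Cy5 intensities were 1210 and 347. In MEC it was 1.92 in het, against 4.79 in WT, with raw Cy5 intensities of 432 and 4546. In P4 it was 3.27 in het, against 2.52 in WT, with 440 and 273. Het was thus higher in both sorted populations and lower in MEC.

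The difference of 2.71 in P5 was the 5th highest of 24062 genes measured there, and that of -2.87 in MEC the 6th lowest of 24656. A difference of at least 2-fold in either direction was seen in 3.26% of genes in P5, 2.22% in MEC and 4.24% in P4, where Rspo1 differed by 0.76. The Cy3 intensities of the reference on this spot were 103 and 123 in het and WT P5 and 58.3 and 80.7 in het and WT MEC, a smaller difference than that of the sample channel. Of 20848 genes well above background on all arrays, 17 (0.0815%) were at least 2-fold higher in het P5 and at least 2-fold lower in het MEC. At 4-fold in both, 2 genes remained, Rspo1 and Calca, which encodes calcitonin and the peptide CGRP and is named here after its values were seen. Calca had log2 ratios of 4.60 in het P5 and -0.11 in WT P5, and of -0.01 in het MEC and 4.38 in WT MEC. With backgrounds as given, Rspo1 differed by 2.11 in P4, 3.11 in P5 and -1.73 in MEC.

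Other genes known from luminal cells, not all of the same luminal type, were set beside Rspo1. Pgr, the progesterone receptor, was lower in het P5 by 2.17 and higher in het MEC by 0.72. Wnt4 differed by -0.04 in P5 and 1.45 in MEC, and Areg, the growth factor amphiregulin, by -0.48 and 0.18. Esr1, the oestrogen receptor, differed by -0.84 and -0.08, and Prlr, the prolactin receptor, by 0.37 and 0.75. The luminal keratins Krt8 and Krt18 were lower in het P5 (-0.75 and -0.63) and higher in het MEC (1.28 and 1.01). Higher in het P5 and lower in het MEC, as Rspo1 was, were Tnfsf11, the cytokine RANKL (0.36 and -0.80, well above background on 4 arrays), Kit, a receptor of luminal progenitors (0.71 and -0.83), and Elf5, an alveolar transcription factor (1.02 and -0.13). Of the 15 luminal markers as a list, 1 was at least 2-fold higher and 1 lower in het P5 (median -0.33), and 3 were higher and none lower in het MEC (median 0.26). Fibroblast markers were lower in het MEC in 3 of 12 by at least 2-fold, with a median of -0.85, and higher in het P5 in 4 of 12, with a median of 0.72. Their part in the Rspo1 values was not tested.

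The receptors and ligases differed less with genotype. In P4 the differences of the 5 ran from -0.42 for Znrf3 to 0.24 for Lgr4, and in P5 from -0.07 for Lgr6 to 0.47 for Rnf43. None of the 5 reached 2-fold in either sorted population on these brightest probes, whereas the upstream probes differed by 2.11 in P4 and 1.74 in P5 for Lgr4 and by 1.17 in P5 for Lgr6. Lgr5, the member with the largest P4 to P5 difference, differed by -0.07 in P4 and 0.01 in P5, below the technical SD of 0.133 that probes printed 10 times on an array gave for a difference between 2 single spots. With backgrounds as given, Lgr5 in P4 differed by 1.73 and Lgr4, on its upstream probe, by 3.11 in P4 and 2.10 in P5.

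In MEC all 5 were lower in het, except that Lgr5 (0.70) and Lgr4 (0.17, upstream probe) were higher in het with backgrounds as given. Lgr4 differed by -1.20, a difference that 1.36% of genes matched or exceeded in size, and was the only one of them past 2-fold. Znrf3 differed by -0.68, Lgr6 by -0.67, Lgr5 by -0.39 and Rnf43 by -0.36. Of 24656 genes, 3121 lay as low as Rnf43 or lower. The median difference in MEC was -0.31 for 16 Wnt receptors and co-receptors and -0.33 for 22 Wnt feedback and target genes. It was -0.03 for 18 Wnt ligands and 0.09 for 10 genes of the beta-catenin degradation machinery. On the same arrays 3 of 15 luminal markers were at least 2-fold higher in het and none lower (median 0.26). Krt8 and Krt18, luminal keratins, were higher by 1.28 and 1.01, and Kit (-0.83), Elf5 (-0.13) and Esr1 (-0.08) were lower. The basal markers averaged 2.51 in het and 2.66 in WT. The part of these markers in the differences was not tested. On the upstream Lgr4 probe the difference was -0.0069. Rspo2 and Rspo3 differed by 0.04 and 0.06 in MEC.

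**Figure D4:**
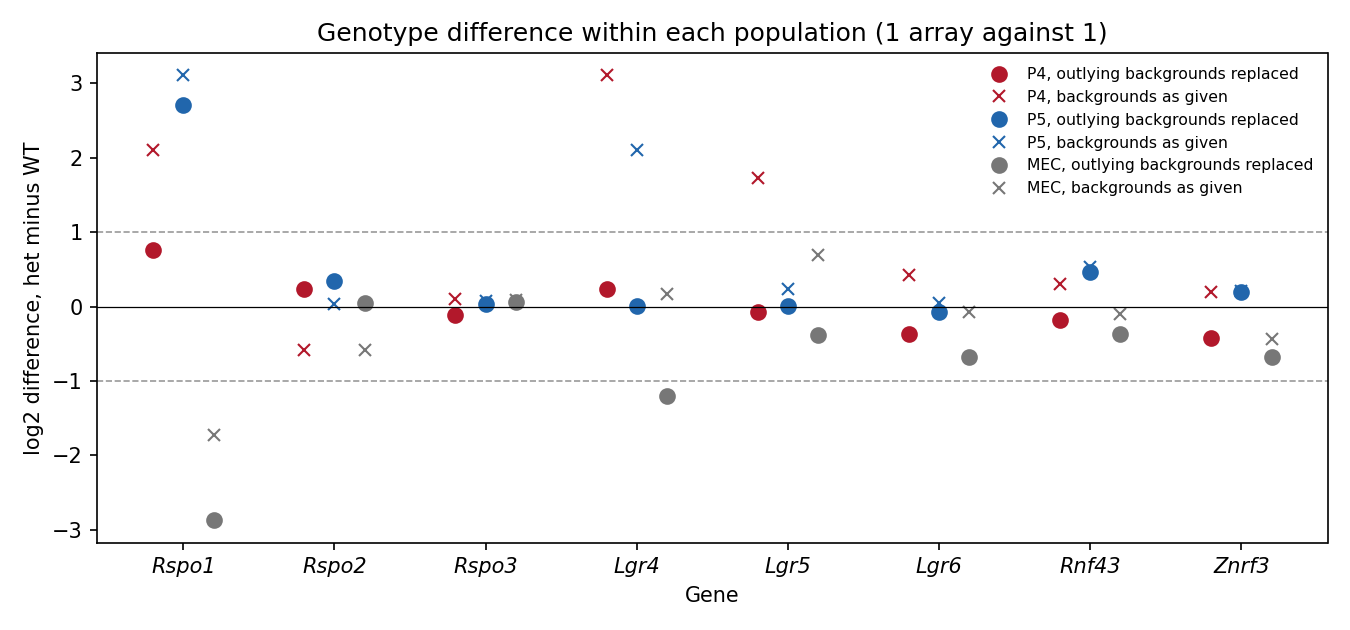
Difference in log2 ratio, het minus WT, of the 8 members in P4, P5 and MEC (1 array against 1, no error bars); circles are the main setting, crosses the setting with local backgrounds as given, and dashed lines mark 2-fold. Rspo1 stands at 2.71 in P5 and -2.87 in MEC; the circles of the receptors and ligases lie between -1.20 and 0.47.

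Other genes of the pathway are given for P4 against P5, where all genes tested had a median difference of 0.07 and 7.51% were called higher and 7.39% lower. Of 16 Wnt receptors and co-receptors, 7 were higher in P4 and none lower (median 0.66), and 2 were higher with backgrounds as given. Fzd7, a Frizzled receptor, was higher in P4 by 2.73 (adjusted p = 0.00699), with 2.65 in het P4 and 3.45 in WT P4 against 0.33 and 0.32 in P5. The pseudokinase receptors Ror1 (1.53) and Ptk7 (1.21) followed it. Of 22 measured Wnt feedback and target genes, 10 were higher and 1 lower (median 0.86). The Wnt inhibitor Nkd1 (5.73), the Dickkopf family member Dkk3 (3.95) and the Wnt-binding inhibitor Wif1 (2.70) were the 3 highest, and Ccnd1, cyclin D1, was lower (-1.96).

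Among 13 partners of R-spondins and ligases, 5 were higher and none lower (median 0.42). With median centring, 4 were higher and 2 lower. The 3 highest were Gpc3, a heparan sulphate glypican (3.14), Ndp, the Frizzled 4 ligand norrin (1.48), and Usp42, a deubiquitinase (1.05). Of 18 Wnt ligands, 4 were higher and 3 lower (median 0.12), with Wnt10a (4.78), Wnt11 (1.99) and Wnt9a (1.56) higher and Wnt4 (-3.37), Wnt5b (-1.35) and Wnt5a (-1.30) lower. Of 10 genes of the beta-catenin degradation machinery, 1 was higher, the kinase gene Csnk1a1 (0.86), and none lower (median -0.18), against none higher and 2 lower with median centring. Of 11 genes that accompany Lgr5 in stem cells of the mouse gut and gland, 3 were higher and 1 lower (median 0.15). These were Procr (1.94), Cdca7 (1.57) and Ephb2 (1.07), and Tspan8 (-1.35).

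Between P5 and MEC, 8 of 22 feedback and target genes were lower in P5 and none higher (median -1.09), where 4.05% of all genes were lower and 1.96% higher. With median centring 17 of the 22 were lower, and so were 11471 of all 24736 genes. No Wnt receptor passed the test there in either direction, while 9 of 16 were lower with median centring. Between P4 and MEC, 5 of 16 Wnt receptors were higher in P4 and 1 lower (median 0.55, against 0.05 over all genes, of which 9.5% were higher and 8.27% lower). With median centring 3 were higher and 5 lower, beside 4179 and 12244 of all genes, and that median was -0.31, against -0.45 over all genes. All 12 basal and myoepithelial markers were also higher in P4 than in P5 (median 5.31) and 12 of 15 luminal markers lower (median -3.45), and the part of these markers in the differences of the pathway genes was not tested. Of 12 fibroblast markers, 4 were higher in P4 than in P5 (median 1.19).

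The genes most like each member were sought by the smallest root mean square difference of log2 ratios centred over the 6 arrays, among 20848 genes well above background on all of them. Lgr5 was closest to Ephb1 (0.14), Tgfb1i1 (0.14) and Cpne8 (0.17), small beside its own SD of 1.70 over the arrays. Lgr4 was closest to Chadl (0.10), Jag1 (0.22) and Tgif2 (0.24), with an SD of 1.28. Znrf3 was closest to Efna5 (0.08), Marcksl1 (0.11) and Nkd2 (0.12), and Rnf43 to Agrn (0.10), Mrtfa (0.13) and Tmsb15l (0.13). Lgr6 was closest to Cdv3 (0.05), Sfr1 (0.07) and Tnfrsf11b (0.07), with an SD of 0.51.

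Rspo1 had no close match. Its nearest genes, Cd1d1 (0.69), Tmprss6 (0.70) and Uhrf1 (0.80), were farther from it than the nearest gene of each receptor and ligase (0.05 to 0.14), against its own SD of 1.30. Rspo3 varied by an SD of 0.092 over the arrays, below the technical SD of 0.094 of a single spot, so its nearest genes, AK085953, Dgkeos and AK033859, say little. Rspo2 was not ranked, because it was not well above background in WT P4.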

How the data were processed

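RNA of 6 samples was measured on 6 two-colour arrays, 1 for each of 3 populations and 2 genotypes. Scanning software was version 9.5.3.1 of Agilent Feature Extraction, per the submitters' processing notes. The deposited files, made by the authors, give each spot's mean signal and median local background as intensity, not normalized, and a log10 ratio of Cy5 over Cy3 that the software made by its own background subtraction and dye normalization, per the file headers. The deposited series matrix holds log2 ratios whose centring is not stated. Set against the software's ratios, the columns of that matrix correlated with r = 0.988 to 0.999 across probes, so it runs sample over reference, and the column medians were -0.044 to 0.101. The headers give mm7 as the build of the probe positions.

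Signals were corrected by normexp (offset 50) and loess in limma 3.58.1 under R 4.3.3, with data.table (version 1.17.8) and jsonlite 2.0.0. Figures were drawn with matplotlib 3.10.9. Local backgrounds more than 6 median absolute deviations above the array median, 0 to 22 spots per array and channel, were set to the median first. The setting planned as the main one kept them as given. Single backgrounds of up to 30168 then widened the fitted noise for the whole array (Cy3 of WT P4, 520 against 1.06), so the replacement became the main setting after the files were seen, and both are reported. Spots marked as non-uniform or outliers (125 to 310 per array) were left out. Of 45018 spots per array, 72.1% to 87.7% were well above background in Cy5. At most 1 was saturated.

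A probe was kept where its Cy5 signal was well above background on 2 or more arrays. For a gene with several, the one with the highest mean Cy5 level stood for the gene. Of the 41174 probes, 22951 were named through their accession and 3109 through an older symbol. An additive limma fit (population and genotype, 2 residual degrees of freedom) was made over 24736 genes and checked on simulated data. P-values measure the spread between these arrays, with genotype differences that vary by population inside the residual. Within a population 1 array was set against 1, with no test and a count of genes 2-fold apart. The number of arrays limits the precision. The members and gene lists were chosen with earlier results of these data known. Named were all members and their probes, the called genes of each list with the 3 highest and 3 lowest P4 minus P5 differences, the 3 genes most like each member, and genes for checking labels. Luminal genes set beside Rspo1 were picked after its values were seen. The alternatives are named in the closing section.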

Additional observations from a re-analysis of the deposited data

Results flagged for a closer look

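Rspo1 moved in opposite directions with genotype in 2 populations: het minus WT was 2.71 in P5 and -2.87 in MEC on the log2 scale. In P4 the difference was 0.76. Each value is 1 array against 1, so the difference between the populations was not tested. Both directions held with backgrounds as given, offset 0, no background subtraction, median centring, the software's log ratios (which the series table repeats) and Cy5 alone, from 2.19 to 3.11 in P5 and from -2.91 to -1.73 in MEC.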

How the results depend on the processing

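The 5 members called higher in P4 than in P5 stayed so under offset 0, no background subtraction, median centring, the software's log ratios, the series table, no filter on dim probes, a filter on all 6 arrays, Cy5 alone and the P4 and P5 arrays only. With backgrounds as given 3 were called, with the mean over probes 4 and with the exon-spanning Lgr4 probe 4. No paired analysis was possible because each group has 1 array and the labels carry no replicate numbers; the genotype term of the fit already sets the arrays of a population side by side. The cause of the changes below was not tested, except that the Lgr4 values with backgrounds as given come from another probe.

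Of 3685 genes called in P4 against P5, 4394 in P4 against MEC, 1486 in P5 against MEC and 0 in het against WT, backgrounds as given left 1698 in P4 against MEC and 964 in P5 against MEC, and median centring gave 16423 and 14303 (25.4% and 19.8% of them higher, against 53.5% and 32.6%), with the median of all genes at -0.45 and -0.40. The P4 and P5 arrays only gave 7034 between populations and 1874 between genotypes. Leaving out 1 array gave 0 to 7034 calls in P4 against P5, 0 to 6818 in P4 against MEC, 0 to 4058 in P5 against MEC (0 without either P4 array in each) and 0 to 1874 in het against WT (1874 without either MEC array). Genes 2-fold apart by genotype numbered 998 in P4, 784 in P5 and 547 in MEC. They were 1620, 1401 and 981 with offset 0, 2126, 1711 and 1343 with the software's ratios, and 2121, 1712 and 1341 with the series table. Median centring changed the share higher in het from 88.5% to 41.0% in P4, 71.8% to 26.3% in P5 and 53.2% to 29.1% in MEC.

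The reversals among members were mostly small. P4 minus P5 was -0.043 for Rspo3 with backgrounds as given, 0.015 for Rspo1 with the software's ratios and with the series table, and -0.031 for Rspo2 in Cy5 alone. P5 minus MEC of Rspo1 was -0.11 with the software's ratios and the series table, -0.31 in Cy5 alone, -0.53 with median centring, -0.16 with offset 0 and -0.023 without background subtraction. P5 minus MEC of Lgr4 was 4.15 with backgrounds as given, 0.59 with the mean over probes and 4.23 on the exon-spanning probe. That of Lgr6 was 0.27 with the mean over probes and 0.024 in Cy5 alone, that of Znrf3 0.075 in Cy5 alone, and that of Rnf43 -0.73 with median centring. Het minus WT of Rspo1 over all arrays was -0.097 with median centring, and het minus WT of Lgr4 in MEC was 0.17 with backgrounds as given. Without 1 array, P4 minus P5 ranged from -2.41 to 1.35 for Rspo1 and from -0.0041 to 0.15 for Rspo3, P4 minus MEC from -2.76 to 1.84 for Rspo1, P5 minus MEC from -2.23 to 2.37 for Rspo1, -0.084 to 0.65 for Rnf43 and -0.51 to 0.23 for Znrf3, and het minus WT from -1.06 to 1.73 for Rspo1. Rspo2 and Rspo3 lay near background, which limits what their ratios can show. Backgrounds as given and the exon-spanning probe were chosen as alternatives after seeing the data.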
